A study of Mus musculus with 12 samples.

Results

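Rax, Six3, Six6, Lhx2, Emx2, Nkx2-1, Otx2, Pax6 and Hesx1 are homeodomain transcription factors that pattern the forebrain and set up the eye field, the patch of anterior neural plate from which both retinas form. They were taken from the table of raw counts by their gene symbols. All 9 were among its 24421 symbols, and all 9 passed the filter on low counts, which left 14810 genes to be tested.

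The 12 RNA libraries came from embryos of strain C57Bl/6 and form 4 groups of 3: 2 genotypes, each collected on embryonic day (E) 9.0 and again on E9.5. At each stage the heterozygous control group has the genotype Eftud2+/- and the homozygous mutant group Eftud2-/-, so that every group, controls included, carries at least 1 altered allele. Eftud2 encodes a spliceosomal GTPase that belongs to the U5 particle, and the alteration is described as specific to certain cells, with the neural crest given as the source. The Cre driver, the number of embryos in a library and the embryos' somite numbers are not given in the sources used here, and neither is a statement that the replicates came from separate litters. P-values therefore measure the spread between these libraries, part of which may be technical.

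The labels name neural crest cells as the source, cranial nerve ganglia as the tissue and heads as the part stored for RNA extraction. Beyond the 9 factors, transcripts of the forebrain gene Fezf1 averaged between 7.65 and 11.2 CPM (counts relative to a common library size after scaling) in the 4 groups. Those of the crest gene Sox10 averaged between 3.98 and 35.9 CPM and those of the ganglion gene Pou4f1 between 5.16 and 11.7 CPM. The summed level of 15 trunk Hox genes stayed between 0.688 and 12.5 CPM in the 12 libraries. The libraries thus held RNA of the anterior neural tube together with that of crest and ganglia, and in such bulk RNA fewer cells of a type and less RNA per cell cannot be told apart.

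Library totals ran from 13914543 to 31172708 counts. The precursor of ribosomal RNA, Rn45s, took between 4.398% and 37.4% of them, with the highest share in heterozygous E9.0 replicate 1, and scaling by the trimmed mean of M values was used throughout. The level of Eftud2 itself was below that of every control library in each homozygous library, at both stages. Its log2 fold change was -0.29 ± 0.0536 (SE) at E9.0 with an adjusted p of 0.0193 and -0.19 ± 0.0531 at E9.5 with an adjusted p of 0.0906, by edgeR's quasi-likelihood test with Benjamini-Hochberg adjustment over all genes tested.

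A pair of E9.5 libraries stood apart from the others of their groups. In heterozygous E9.5 replicate 2 the summed level of 15 midbrain and isthmus markers was 200.8 CPM, against 126 and 141 CPM in the other heterozygous E9.5 libraries. That of 15 head mesenchyme markers was 648 CPM, against 1251 and 1276 CPM, and that of 12 endothelium markers was 199.9 CPM, against 275 and 285 CPM. In homozygous E9.5 replicate 3, all 9 factors lay above the mean of their group, by 0.28 on average on the log2 scale. The E9.5 genotype values of the 9 factors are therefore also given without each of these libraries. The calls and medians of the marker lists below rest on all 12 libraries and were not repeated without either library.

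As background, the anterior neural plate is divided into overlapping territories by these factors. Otx2 marks forebrain and midbrain down to the boundary with the hindbrain, Six3 and Hesx1 the most anterior part, and Rax, Six3, Six6, Lhx2 and Pax6 act together in the eye field and later in the optic vesicle. Emx2 marks the dorsal telencephalon, from which the cortex forms, and Nkx2-1 the ventral forebrain and hypothalamus. Most of these genes are also active elsewhere in the head: Six3, Six6 and Hesx1 in the pituitary, Pax6 in lens and surface ectoderm, and Nkx2-1 in thyroid and ventral foregut.

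The 250 bases before the start of 4 transcripts are shown because they stand for the contrasts described below: the paralogs Six3 and Six6, of which Six3 fell with stage and Six6 did not pass that test, Otx2, whose genotype groups were apart at both stages, and Hesx1, which had the steepest decline with stage. The sequences are from RefSeq (GRCm38.p6), read 5′ to 3′ on the gene's strand. Capitals mark matches, on either strand, to the CCAAT box (CCAAT), the homeodomain palindrome TAATTA and the TAATCC motif of OTX-type factors.
Six3, chr17:85620584-85620833, plus strand: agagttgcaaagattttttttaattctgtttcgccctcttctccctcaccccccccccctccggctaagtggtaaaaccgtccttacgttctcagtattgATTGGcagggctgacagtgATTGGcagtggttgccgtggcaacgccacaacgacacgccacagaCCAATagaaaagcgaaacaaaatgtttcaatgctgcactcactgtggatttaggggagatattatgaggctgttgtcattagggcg
Six6, chr12:72939632-72939881, plus strand: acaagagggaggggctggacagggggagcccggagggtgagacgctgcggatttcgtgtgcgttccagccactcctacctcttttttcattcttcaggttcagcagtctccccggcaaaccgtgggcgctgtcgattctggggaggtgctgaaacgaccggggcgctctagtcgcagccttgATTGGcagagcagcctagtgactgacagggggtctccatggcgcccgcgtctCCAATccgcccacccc
Otx2, the third of 4 starts, chr14:48665110-48665359, minus strand: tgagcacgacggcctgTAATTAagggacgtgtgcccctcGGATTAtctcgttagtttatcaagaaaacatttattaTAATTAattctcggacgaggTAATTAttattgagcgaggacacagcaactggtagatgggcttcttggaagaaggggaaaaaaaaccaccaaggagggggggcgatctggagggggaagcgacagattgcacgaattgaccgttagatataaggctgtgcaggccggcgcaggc
Hesx1, chr14:27000112-27000361, plus strand: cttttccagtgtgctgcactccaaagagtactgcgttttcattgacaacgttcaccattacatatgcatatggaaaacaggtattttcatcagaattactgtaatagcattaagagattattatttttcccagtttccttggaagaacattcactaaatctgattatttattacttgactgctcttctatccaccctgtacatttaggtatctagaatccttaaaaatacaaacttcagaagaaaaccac

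The promoter table matched 8 of the 9 factors with 13 starts, and the motif search, on both strands, also took in the TATA box (TATAAA). The Six3 window held 3 CCAAT boxes, 150, 131 and 86 bases before the start, and the Six6 window held 2, at 68 and 16 bases. At least 1 CCAAT box was found in 5 of the 13 windows and in 33.8% of 32851 windows of the same length over all genes. The palindrome TAATTA was found 3 times in the third Otx2 window and once in the first, and in 4.84% of all windows. TAATCC was found once, in the third Otx2 window (6.25% of all windows), and TATAAA once, in the first (12.4% of all windows). The Hesx1 window held no match to any of the 4 motifs and had the lowest GC content of the 13, at 34%. The third Otx2 window, shown above, held the most matches of the 4 Otx2 windows, and the fourth held none. Which Otx2 starts were used in these libraries was not tested. The matches describe the letters in the windows and show no binding.

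Compared per length, Otx2 was the most abundant of the 9 and Nkx2-1 the least. The mean over the 12 libraries, in RPKM (CPM divided by the exon length in kilobases, with merged exons from GENCODE M21), was 12.04 for Otx2, 7.75 for Lhx2, 5.17 for Pax6, 3.73 for Emx2, 2.72 for Six6, 2.31 for Hesx1, 1.93 for Six3, 1.43 for Rax and 1.27 for Nkx2-1. With the coding length in place of the exon length, 5 of the 9 changed rank; Otx2 and Nkx2-1 kept the first and the last place. In the E9.5 heterozygous group, Otx2 (11.97 ± 3.42 RPKM, SD, n = 3) and Lhx2 (7.60 ± 0.998) were the highest by exon length. Hesx1 (0.910 ± 0.244) and Rax (0.729 ± 0.115) had the lowest means, and their SDs overlapped each other and that of Nkx2-1 (1.16 ± 0.466). With the coding length, Hesx1 lay below Rax in each library of this group. Counts ranged from 27 in a Hesx1 library to 2288 in an Otx2 library, and the coefficients of variation of Hesx1 and Nkx2-1 in the groups lay between 15.8% and 46.0%.

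**Figure D1:**
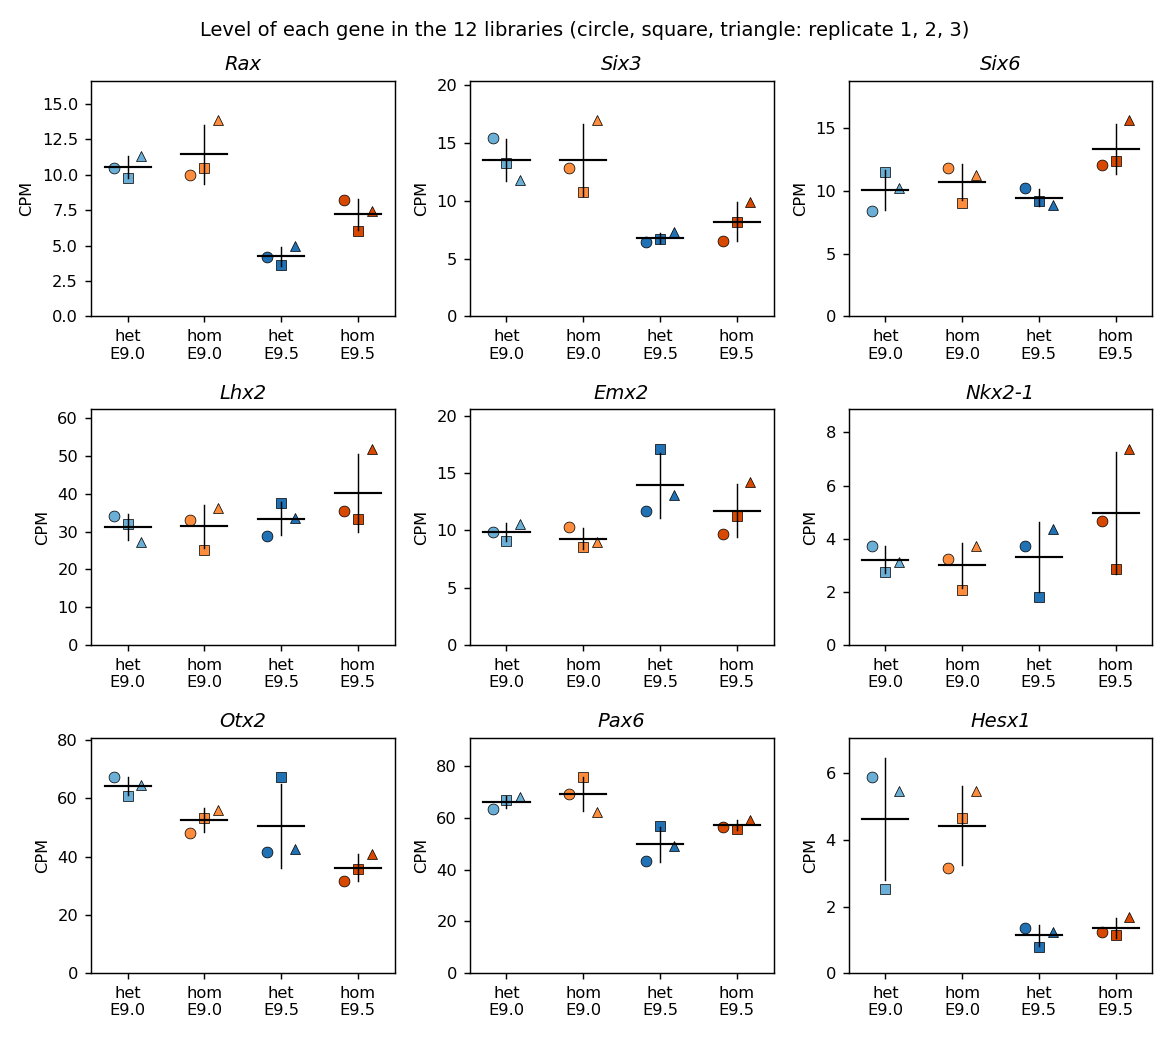
Level of each of the 9 factors in the 12 libraries, in CPM on scaled library sizes, with a separate axis for each gene. Points are libraries (replicates 1, 2 and 3 as circle, square and triangle), horizontal bars are group means and vertical lines are 1 SD; het is heterozygous and hom is homozygous. The 3 homozygous E9.5 points of Rax, at 8.195, 6.05 and 7.43 CPM, lie above the 3 heterozygous ones, and Hesx1 is low in all E9.5 libraries.

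The comparison of homozygous with heterozygous libraries at each stage asks whether these factors differ with the Eftud2 genotype. At E9.5 Rax was higher in homozygous libraries, and it was the 1 factor of 9 past an adjusted p of 0.05 at that stage; 1.89% of all genes tested passed it. At E9.0 none of the 9 passed, where 0.587% of all genes did. None had an unadjusted p under 0.05 by edgeR's test, where 13.3% of all genes had. None passed by limma-voom or DESeq2, which called 51 of 14810 and 216 of 14809 genes. The median log2 fold change of the 9 was 0.01 at E9.0, with 4 lower and 5 higher, and 0.26 at E9.5, with 2 lower and 7 higher; the medians over all genes were -0.004 and -0.003. At E9.5, 4 of the 9 had an unadjusted p under 0.05, as had 13.4% of all genes. The groups did not overlap for 1 of the 9 at E9.0 (17.3% of all genes) and for 3 of the 9 at E9.5 (20.9% of all genes).

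Rax (GRCm38 chr18:65928277-65939787, minus strand) encodes the retina and anterior neural fold homeobox protein, without which no eye forms. At E9.0 its level was 10.5, 9.76 and 11.4 CPM in heterozygous replicates 1, 2 and 3 and 9.998, 10.5 and 13.8 CPM in homozygous replicates. By E9.5 the level was 4.18, 3.64 and 4.97 CPM in heterozygous and 8.195, 6.05 and 7.43 CPM in homozygous libraries. The groups thus overlapped at E9.0 and were apart at E9.5, where every homozygous library exceeded every heterozygous one.

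The mean of Rax at E9.5 was 4.26 ± 0.671 CPM (SD, n = 3) in heterozygous and 7.22 ± 1.09 CPM in homozygous libraries. This is a log2 fold change of 0.76 ± 0.155 (SE; 95% interval 0.44 to 1.09), or 1.70-fold, with an adjusted p of 0.0179 by edgeR's quasi-likelihood test. The exact two-sided permutation test gave p = 0.1, the smallest it can give with 3 libraries against 3. At E9.0 the log2 fold change was 0.12 ± 0.153 (adjusted p = 0.791). Averaged over the stages Rax was higher by 0.44 ± 0.109, with an adjusted p of 0.0393 (2.96% of all genes passed in this contrast). The difference between the stages, 0.65 ± 0.217 in Rax, had an unadjusted p of 0.00887 and an adjusted p of 0.399 by edgeR's test. None of the 9 factors passed in this interaction, where 0.0675% of all genes did. An unadjusted p under 0.05 was found for 2 of the 9 and for 8.6% of all genes. None passed by DESeq2 or limma-voom, which called 76 of 13373 and 5 of 14810 genes.

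The Rax call at E9.5 was lost without heterozygous E9.5 replicate 2 (0.66, adjusted p = 0.0782), without homozygous E9.5 replicate 1 (0.67, adjusted p = 0.0765) and without homozygous E9.5 replicate 3 (0.74, adjusted p = 0.0614), and held in the other 9 fits that left out 1 library. The averaged call was less stable: it held without homozygous E9.0 replicate 1 or 2, heterozygous E9.5 replicate 3 or homozygous E9.5 replicate 2, and was lost without any of the other 8 libraries (0.36 to 0.47, adjusted p up to 0.106) and with limma-voom (0.43, adjusted p = 0.0565). Rax shares 1604 exon bases with Raxos1 on the opposite strand in GENCODE M21; Raxos1 was not analysed here and the strand setting of the counts is not given, so their reads cannot be told apart in the shared bases.

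Six3 and Six6 are paralogs of the sine oculis family: Six3 protects the anterior forebrain by repressing Wnt genes, and Six6 acts in the growth of retina and pituitary. Six3 was at 15.4, 13.2 and 11.8 CPM in heterozygous and 12.9, 10.8 and 17.0 CPM in homozygous E9.0 libraries. In E9.5 libraries Six3 stood at 6.40, 6.72 and 7.28 CPM in heterozygous and 6.54, 8.17 and 9.90 CPM in homozygous libraries. The Six3 groups overlapped at both stages, and the log2 fold changes were 0.01 ± 0.168 at E9.0 and 0.27 ± 0.167 at E9.5 (adjusted p = 0.987 and 0.557). The Six3 value at E9.5 was 0.12 without homozygous E9.5 replicate 3 and 0.26 without heterozygous E9.5 replicate 2. Six3 shares 106 exon bases with Six3os1 on the opposite strand, which was at 0.33 ± 0.120 at E9.5 (adjusted p = 0.221).

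Six6 was at 8.37, 11.5 and 10.3 CPM in heterozygous and 11.8, 9.05 and 11.3 CPM in homozygous E9.0 libraries. The E9.5 levels of Six6 were 10.2, 9.22 and 8.91 CPM in heterozygous and 12.04, 12.4 and 15.6 CPM in homozygous libraries. The E9.5 groups of Six6 did not overlap. The log2 fold change there was 0.50 ± 0.130 (95% interval 0.22 to 0.77) with an adjusted p of 0.0664, which missed the threshold; it passed with DESeq2 (adjusted p = 0.0228) with no filter on low counts (0.0240) and when replicate 1 of the heterozygous E9.0 group was left out (0.0432). Without homozygous E9.5 replicate 3 it was 0.37 (adjusted p = 0.295), and without heterozygous E9.5 replicate 2 it was 0.48 (adjusted p = 0.171). Six6 shares 192 exon bases with 4930447C04Rik on the opposite strand, whose log2 fold change at E9.5 was 0.11 ± 0.224.

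Lhx2, a LIM homeodomain factor needed for the optic vesicle to become an optic cup and for the cortex, had overlapping groups at both stages. It was at 34.1, 32.0 and 27.3 CPM in heterozygous and 32.9, 25.1 and 36.2 CPM in homozygous E9.0 libraries. In E9.5 libraries Lhx2 stood at 28.8, 37.6 and 33.7 CPM in heterozygous and 35.4, 33.2 and 51.9 CPM in homozygous libraries, with the highest value in homozygous replicate 3. The log2 fold change at E9.5 was 0.26 ± 0.176 (adjusted p = 0.604); without that replicate it was 0.04, and without heterozygous E9.5 replicate 2 it was 0.36.

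Pax6, a paired-domain factor used in eye, lens and cortex, had coefficients of variation of 3.27% to 13.4% in the 4 groups. It was at 63.4, 66.7 and 68.0 CPM in heterozygous and 69.2, 75.6 and 62.3 CPM in homozygous E9.0 libraries. The E9.5 levels of Pax6 were 43.4, 56.6 and 49.1 CPM in heterozygous and 56.4, 55.7 and 59.2 CPM in homozygous libraries. The groups overlapped at both stages; at E9.5 the log2 fold change was 0.20 ± 0.0858 with an unadjusted p of 0.0333 and an adjusted p of 0.319 by edgeR's test. Without heterozygous E9.5 replicate 2 the Pax6 value was 0.31 (adjusted p = 0.0989), and without homozygous E9.5 replicate 3 it was 0.17 (adjusted p = 0.605). Over the 12 fits that left out 1 library, the Pax6 value at E9.5 ran from 0.11 to 0.31. The 95% interval of Pax6 at E9.0, -0.12 to 0.25, was the narrowest of the 9.

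Otx2, the head organiser gene that maintains forebrain and midbrain identity, was lower in every homozygous library than in every heterozygous library of its stage, but did not pass the adjusted threshold. At E9.0 it was at 67.1, 60.8 and 64.4 CPM in heterozygous and 48.1, 53.2 and 56.1 CPM in homozygous libraries. In E9.5 libraries Otx2 stood at 41.7, 67.1 and 42.7 CPM in heterozygous and 31.7, 35.9 and 41.0 CPM in homozygous libraries. The E9.5 groups were separated by a small gap, and heterozygous replicate 2 lay far above the other libraries of the stage.

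The log2 fold change of Otx2 was -0.29 ± 0.168 at E9.0 (adjusted p = 0.488) and -0.48 ± 0.164 at E9.5 (95% interval -0.84 to -0.12; unadjusted p = 0.0129, adjusted p = 0.210, edgeR's test). Heterozygous E9.5 replicate 2 had the highest midbrain and isthmus marker sum among the E9.5 libraries. Without it the E9.5 value of Otx2 was -0.22 (adjusted p = 0.411), and without homozygous E9.5 replicate 3 that value was -0.58 (adjusted p = 0.216). Averaged over the stages the log2 fold change of Otx2 was -0.39 ± 0.117 with an adjusted p of 0.119. That contrast passed with DESeq2 and without heterozygous E9.5 replicate 2 (-0.25, adjusted p = 0.0463). The antisense gene Otx2os1, which shares 154 exon bases with Otx2, had 2 to 30 counts per library; averaged over the stages its log2 fold change was -1.35 ± 0.350 (adjusted p = 0.0488), and without a known strand setting its reads and those of Otx2 cannot be told apart in the shared bases.

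Hesx1, a repressor of the anterior neural plate and of Rathke's pouch, the pituitary's precursor, had the lowest counts of the 9 at E9.5. It was at 5.87, 2.52 and 5.46 CPM in heterozygous and 3.16, 4.64 and 5.47 CPM in homozygous E9.0 libraries. The E9.5 levels of Hesx1 were 1.37, 0.792 and 1.24 CPM in heterozygous and 1.25, 1.14 and 1.69 CPM in homozygous libraries. The genotype groups overlapped at both stages, and the 95% interval of the log2 fold change at E9.5, -0.47 to 0.97, leaves room for a change in either direction. The Hesx1 value there was 0.25 over all libraries, 0.04 without heterozygous E9.5 replicate 2 and 0.08 without homozygous E9.5 replicate 3. Over the 12 fits that left out 1 library, the Hesx1 value at E9.5 ran from 0.04 to 0.42.

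Emx2, which regulates growth and regional identity of the dorsal telencephalon, was at 9.91, 9.06 and 10.6 CPM in heterozygous and 10.3, 8.59 and 8.98 CPM in homozygous E9.0 libraries. In E9.5 libraries Emx2 stood at 11.7, 17.1 and 13.1 CPM in heterozygous and 9.71, 11.3 and 14.2 CPM in homozygous libraries, with its highest value in heterozygous replicate 2. The groups overlapped, and the log2 fold changes of Emx2 were -0.09 ± 0.168 at E9.0 and -0.25 ± 0.146 at E9.5 (adjusted p = 0.857 and 0.505). Without heterozygous E9.5 replicate 2 the E9.5 value was -0.07, and without homozygous E9.5 replicate 3 it was -0.41 (adjusted p = 0.298). Emx2 shares 264 exon bases with Emx2os on the opposite strand, which had 5 to 56 counts per library and was at -0.88 ± 0.332 at E9.5 (adjusted p = 0.241).

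Nkx2-1, which specifies the ventral forebrain and also the thyroid and lung, differed widely between replicates. It was at 3.74, 2.74 and 3.14 CPM in heterozygous and 3.23, 2.06 and 3.72 CPM in homozygous E9.0 libraries. The E9.5 levels of Nkx2-1 were 3.72, 1.82 and 4.37 CPM in heterozygous and 4.65, 2.86 and 7.39 CPM in homozygous libraries. The log2 fold change at E9.5 was 0.59 ± 0.348 (95% interval -0.17 to 1.34), with overlapping groups and an adjusted p of 0.539; without homozygous E9.5 replicate 3 it was 0.19, and without heterozygous E9.5 replicate 2 it was 0.29.

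**Figure D2:**
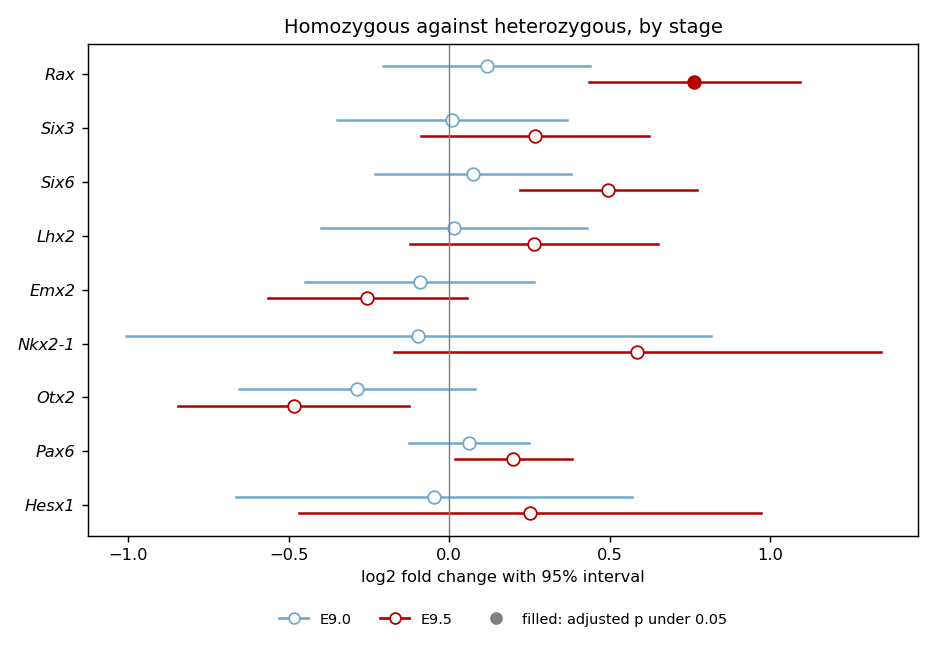
Log2 fold change of homozygous against heterozygous libraries with its 95% interval (horizontal axis) for each of the 9 factors, at E9.0 (blue) and E9.5 (red), from the fit over 12 libraries; a filled point has an adjusted p under 0.05. The filled point is Rax at E9.5 (0.76), and the intervals at E9.0 all include 0.

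The deviations within groups show how far single libraries carry these values. Homozygous E9.5 replicate 3 had all 9 factors above its group mean, from 0.05 for Rax to 0.67 for Nkx2-1 on the log2 scale, and homozygous E9.5 replicate 2 had 8 of 9 below. Without homozygous E9.5 replicate 3, the E9.5 median of the 9 log2 fold changes was 0.12 in place of 0.26. In that fit 7 were still above 0 and none of the 9 passed the threshold, where 136 of 15011 genes did. Without heterozygous E9.5 replicate 2 the median was 0.29, and none passed, where 151 of 15026 genes did.

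**Figure D3:**
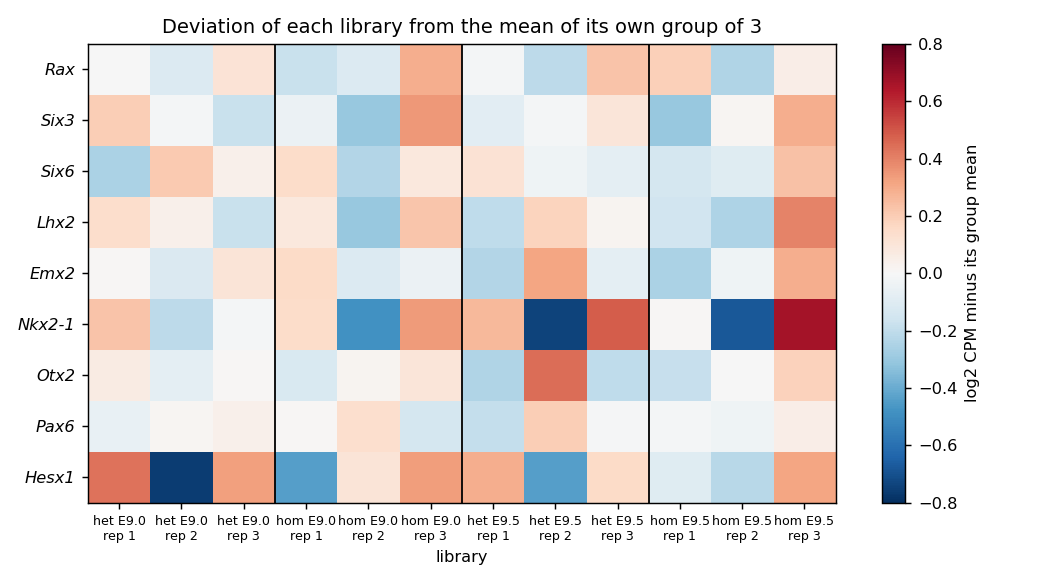
Deviation of the log2 CPM of each factor (rows) in each of the 12 libraries (columns) from the mean of the library's own group, with red above and blue below the mean; black lines part the 4 groups. The last column, homozygous E9.5 replicate 3, is red in all 9 rows, and heterozygous E9.5 replicate 2 combines high Otx2 with low Nkx2-1.

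The comparison of E9.5 with E9.0 within each genotype describes the course of these factors between these stages. Hesx1, Rax, Six3 and Pax6 fell in both genotypes. In heterozygous libraries 4 of the 9 were lower past the threshold (16.0% of all genes were) and Emx2 was higher, so that 5 of 9 passed in either direction, against 35.2% of all genes. In homozygous libraries 5 of the 9 were lower past the threshold (15.8% of all genes) and none was higher, against 35.4% of all genes in either direction. With library totals alone as the scale 2 were lower and 2 higher there, and 3326 of 14810 genes were called. Library composition also moved with stage. Rn45s took 6.05% to 37.4% of the counts at E9.0 and 4.398% to 5.90% at E9.5. All 8 erythroid markers tested were higher past the threshold at E9.5 in both genotypes. The 10 erythroid markers in the table summed to 666 to 1183 CPM at E9.0 and 4060 to 5297 CPM at E9.5 in heterozygous libraries, and to 552 to 1216 CPM and 2836 to 5211 CPM in homozygous ones. Of 14 early neuron markers, 14 were higher past the threshold in heterozygous and 13 in homozygous libraries. Their sum was 88.4 to 94.4 CPM at E9.0 and 249 to 286 CPM at E9.5 in heterozygous libraries, and 84.1 to 89.6 CPM and 204 to 222 CPM in homozygous ones. The part of these shifts in the stage differences of the 9 factors was not tested, beyond the change of scaling given below.

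Hesx1 fell the most, by 2.02 ± 0.312 on the log2 scale in heterozygous libraries (adjusted p = 0.000153) and fell by 1.72 ± 0.314 in homozygous ones (adjusted p = 0.00058). Its 6 E9.5 libraries, at up to 1.69 CPM, all lay below its 6 E9.0 libraries, at 2.52 CPM or more. Rax fell by 1.31 ± 0.157 in heterozygous libraries (adjusted p = 1.14e-05) and fell by 0.67 ± 0.152 in homozygous libraries (adjusted p = 0.00278). The difference between those falls is the interaction given above, which did not pass after adjustment.

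Six3 fell by 0.98 ± 0.168 in heterozygous libraries and fell by 0.72 ± 0.168 in homozygous libraries (adjusted p = 0.000343 and 0.0036), with no overlap between the stages in either genotype. Its paralog Six6 did not fall past the threshold: the log2 fold change with stage was -0.10 ± 0.137 in heterozygous and 0.32 ± 0.137 in homozygous libraries (adjusted p = 0.609 and 0.0783). In homozygous libraries Six6 was higher past the threshold with no filter on low counts (0.36, adjusted p = 0.0384), and without homozygous E9.5 replicate 3 it was at 0.20 (adjusted p = 0.317). The 95% intervals of Six3 in heterozygous libraries, -1.34 to -0.62, and of Six6, -0.39 to 0.19, did not overlap; the difference between the paralogs itself was not tested.

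Pax6 fell by 0.41 ± 0.0868 in heterozygous libraries and fell by 0.27 ± 0.0871 in homozygous libraries (adjusted p = 0.00162 and 0.0215). Otx2 fell by 0.54 ± 0.168 in homozygous libraries (adjusted p = 0.0278); in heterozygous libraries its log2 fold change was -0.34 ± 0.163 (adjusted p = 0.131), and without heterozygous E9.5 replicate 2 it was -0.60 (adjusted p = 0.000174). Emx2 rose by 0.50 ± 0.154 in heterozygous libraries (adjusted p = 0.019), a call that was lost without heterozygous E9.0 replicate 2 (0.44, adjusted p = 0.0762) and without heterozygous E9.5 replicate 2 (0.32, adjusted p = 0.0987). In homozygous libraries Emx2 was at 0.34 ± 0.161 (adjusted p = 0.114), at 0.19 without homozygous E9.5 replicate 3 (adjusted p = 0.415), and past the threshold without homozygous E9.5 replicate 1 (0.46, adjusted p = 0.0430).

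Lhx2 and Nkx2-1 passed in neither genotype, with log2 fold changes of 0.11 ± 0.182 and 0.36 ± 0.183 for Lhx2 and 0.05 ± 0.382 and 0.73 ± 0.386 for Nkx2-1, heterozygous first. Without homozygous E9.5 replicate 3 the homozygous values were 0.13 for Lhx2 and 0.34 for Nkx2-1 (adjusted p = 0.528 and 0.511), and without homozygous E9.5 replicate 2 Nkx2-1 passed (1.02, adjusted p = 0.0372). Without heterozygous E9.5 replicate 2 the heterozygous values were 0.011 for Lhx2 and 0.35 for Nkx2-1 (adjusted p = 0.977 and 0.472). With library totals alone as the scale, the median over all genes was 0.38 in heterozygous and 0.18 in homozygous libraries, against 0.0082 and 0.0149 with the scaling used throughout. On that scale Pax6 was at -0.05 in heterozygous and -0.11 in homozygous libraries and was no longer called, Rax in homozygous libraries was at -0.49 (adjusted p = 0.0522) and Otx2 there at -0.37 (adjusted p = 0.117), and Lhx2 and Emx2 were called higher in both genotypes. In homozygous libraries that scale thus gave 2 factors lower (Six3 and Hesx1) and 2 higher (Lhx2 at 0.54 and Emx2 at 0.51). Rax, Six3 and Hesx1 kept their stage calls in all 12 fits that left out 1 library, in both genotypes, whereas Otx2 in homozygous libraries kept its call in 7 of 12 and Pax6 there in 8 of 12. Otx2 lost it without replicate 2 or 3 of the homozygous E9.0 group, replicate 1 or 2 of the homozygous E9.5 group, or replicate 1 of the heterozygous E9.0 group (-0.54 to -0.44, adjusted p up to 0.107), and also with no filter on low counts (-0.50, adjusted p = 0.101). Pax6 lost it without replicate 1 or 2 of either homozygous group (-0.27 to -0.20, adjusted p up to 0.118).

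**Figure D4:**
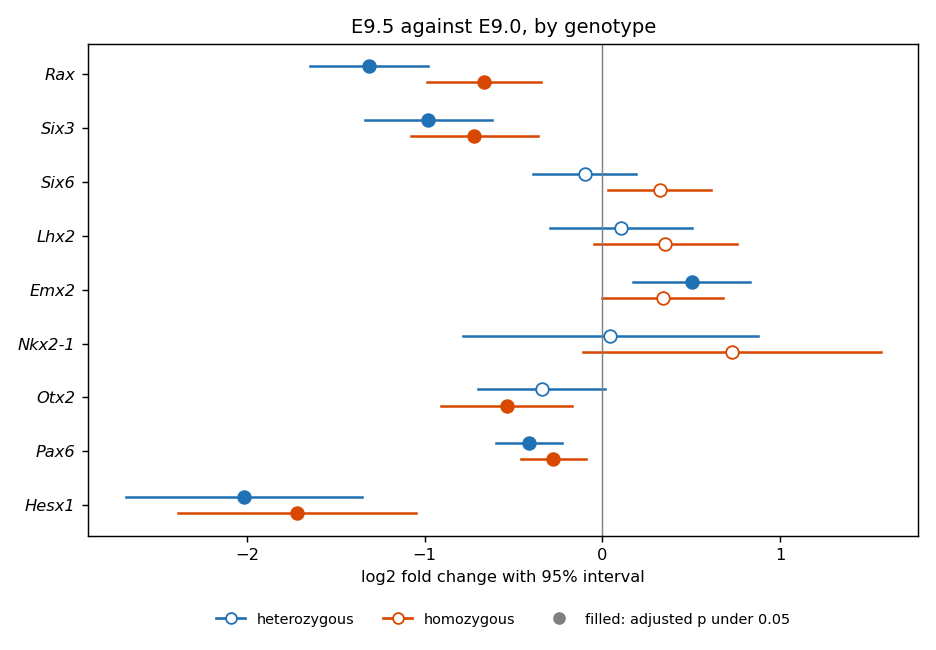
Log2 fold change of E9.5 against E9.0 with its 95% interval (horizontal axis) for each of the 9 factors, in heterozygous (blue) and homozygous (orange) libraries; a filled point has an adjusted p under 0.05. Hesx1 lies farthest to the left in both genotypes (-2.02 and -1.72), and Six6, Lhx2 and Nkx2-1 have open points in both.

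Genes known from the same territories were compared as lists, to set the 9 factors beside their neighbours along the head axis. Of 29 other eye genes, 1 was lower and 1 was higher in homozygous libraries at E9.5. The lower one was Mab21l2, needed for lens and retina (-0.99 ± 0.124, adjusted p = 0.000694), which was also lower at E9.0 (-0.75 ± 0.149, adjusted p = 0.0293). The higher one was Prox1, a factor of lens, lymphatic and neural cells (0.54 ± 0.113, adjusted p = 0.021). The median of the eye list was 0.07 at E9.5, and its summed level was 1019 to 1038 CPM in heterozygous and 1030 to 1107 CPM in homozygous libraries.

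Of 26 other telencephalon genes tested, 3 were lower at E9.5 and none was higher, and the median was -0.18. They included Dlx1 (-3.09 ± 0.210, adjusted p = 1.38e-06) and Dlx2 (-1.78 ± 0.194, adjusted p = 0.000195), homeobox genes that serve the ventral telencephalon and also the crest of the facial arches. Of 26 other diencephalon and hypothalamus genes tested, 4 were lower and 1 was higher. The lower ones were Tal2, Lhx9, Pou3f4 and Barhl1, with log2 fold changes from -2.14 to -0.68.

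The midbrain and isthmus list, from behind the forebrain, had 7 of 15 genes lower and none higher at E9.5, with a median of -0.47. They included En2 (-4.64 ± 0.392), the engrailed gene of midbrain and cerebellum, Wnt1 (-0.93 ± 0.170), the signal of the midbrain border, and Dmbx1 (-1.86 ± 0.225), a midbrain homeobox gene. The list's sum was 126, 200.8 and 141 CPM in heterozygous E9.5 replicates 1, 2 and 3. In homozygous E9.5 libraries it was 76.8 to 90.3 CPM. These calls were not repeated without heterozygous E9.5 replicate 2. None of 15 hindbrain genes passed at E9.5 by edgeR's test, with a median of 0.15, and 2 of 15 pan-neural progenitor genes were lower, Pax3 and Fabp7, with a median of -0.05. At E9.0, the genes of these 6 lists that passed included Mab21l2 and Pou3f4, both lower.

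**Figure D5:**
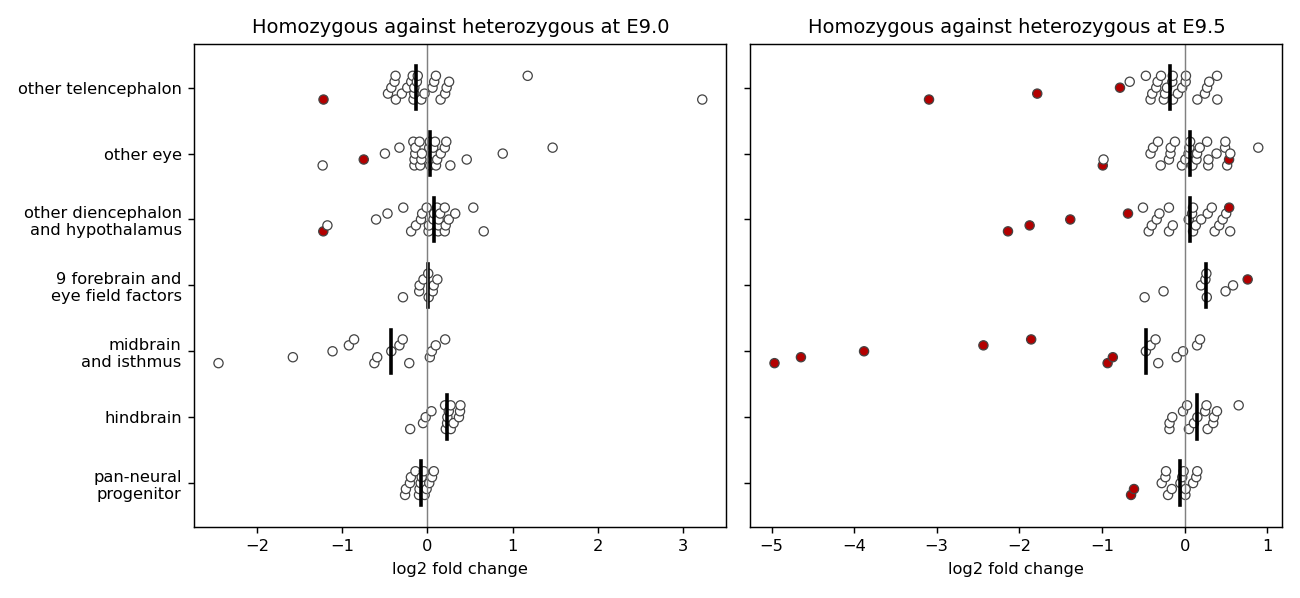
Log2 fold change of homozygous against heterozygous libraries (horizontal axis) at E9.0 (left) and E9.5 (right) for the 9 factors and 6 lists of other head genes; each point is a gene, filled red where the adjusted p is under 0.05, and the black bar is the list's median. The midbrain and isthmus list reaches the lowest values at E9.5, with a median of -0.47, and the 9 factors have a median of 0.26.

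Markers of other cell types in the libraries moved with the genotype as well. At E9.5, 8 of 12 endothelium markers were higher in homozygous libraries and none was lower. Their summed level was 199.9 to 285 CPM in heterozygous and 359.5 to 409 CPM in homozygous libraries, with no marker at 0 throughout. Heterozygous E9.5 replicate 2 had the lowest of these sums, against 275 and 285 CPM in replicates 1 and 3. The calls were not repeated without it. Of 16 neural crest markers 7 were lower, with sums of 749 to 801 CPM in heterozygous and 559 to 681 CPM in homozygous libraries. Of 14 early neuron markers 1, Tubb3, was lower past the threshold and none was higher. By direction alone 11 were lower and 3 were higher. The sum of the 14 was 249 to 286 CPM in heterozygous and 204 to 222 CPM in homozygous libraries. The part of these shifts in the levels of Rax, Six6 and Otx2 was not tested.

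Lists for the other sites of these factors were set beside them. Of 14 thyroid and ventral foregut markers, which bear on Nkx2-1, 3 were higher at E9.5 (Hhex, Nkx2-5 and Epcam). Nkx2-5 is also in the list of pharyngeal mesoderm and Epcam in that of surface ectoderm. By direction alone 11 of the 14 were higher and 3 lower, and the sum was 191 to 202 CPM in heterozygous and 228 to 261 CPM in homozygous libraries. Of 7 pituitary and oral ectoderm markers tested, which bear on Hesx1, Six3 and Six6, 1 was higher. Cga and Tbx19 had at most 3 counts in any library, whereas Pomc of the same list had 13 to 43. Of 13 lens and olfactory placode markers tested, which bear on Pax6 and Six3, 2 were higher, among them Prox1. Of the crystallin genes listed, Cryaa had at most 1 count and Cryba1 at most 8 counts in any library. Cryab had 14 to 610 counts and averaged 12.03 CPM in heterozygous and 16.15 CPM in homozygous E9.5 libraries. Of 8 pharyngeal mesoderm markers tested, 3 were higher, among them Tbx1 and Nkx2-5, with a median of 0.60. Of 15 cranial ganglion markers tested 2 were lower and 2 higher, of 15 head mesenchyme markers 2 were lower, of 12 surface ectoderm markers 1 was higher, and of 8 erythroid and 4 trunk Hox markers tested none passed by edgeR's test. Whether these tissues contributed to the 9 factors' values was not tested.

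The genes whose log2 CPM profiles over the 12 libraries lay closest to each factor were ranked by the root mean square (RMS) difference of centred values, as a description. For Rax, with an SD of 0.61 over the libraries, they were Lrrc55 (0.18), Flt4 (0.18) and Nrp2 (0.20). For Otx2 (SD 0.37) they were Sox21 (0.13), Ccdc177 (0.14) and Axin2 (0.15). Emx2 (SD 0.30) was followed by Wnt3a (0.12), Dll1 (0.13) and Elavl2 (0.13), and Six3 (SD 0.50) by Pdzd2 (0.15), Pfdn2 (0.17) and Sall3 (0.17). The closest gene was Acer2 (0.12) for Six6, Chst1 (0.07) for Lhx2, Cyyr1 (0.20) for Nkx2-1 and Elfn1 (0.18) for Hesx1. No factor was among the 3 genes closest to another, since the 9 were left out of the ranking.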

How the data were processed

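The authors deposited 1 table of raw counts per gene symbol for 12 libraries. The submitters' processing notes name cutadapt, STAR, featureCounts, MultiQC and the build mm10; versions, annotation and strand setting are not given in the sources used here. All 12 columns were matched to samples by their labels.

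Counts were tested in R 4.3.3 with edgeR 4.0.16 (quasi-likelihood F test, robust dispersions), after filterByExpr (14810 genes kept, 9611 left out) and TMM scaling, in 1 model of 4 group means, with Benjamini-Hochberg adjustment over the 14810 genes and a two-sided threshold of 0.05. A standard error is the log2 fold change divided by the root of its F statistic. The common biological coefficient of variation was 8.77%. The script was tested on simulated data. CPM use TMM-scaled sizes; log2 CPM use a prior count of 2. RPKM, positions and overlaps use GENCODE M21 (GRCm38, the assembly of mm10), and promoter windows come from RefSeq.

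The 9 factors and all lists were chosen with earlier results of these data known. Named list genes are those past the threshold in a genotype comparison, up to 6 a list by adjusted p, and defining markers were named after their values were seen. A few genes picked by these rules are not reported here. Likeness took the 3 closest genes with a mean of at least 10 counts.

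No 2 replicates agreed within sampling noise (chi-square per degree of freedom 6.05 to 40.4). Alternatives were other scalings and filters, limma-voom 3.58.1, DESeq2 1.42.0, a replicate block, and each library left out.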

Additional observations from a re-analysis of the deposited data

How the results depend on the processing

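At E9.5, the genotype call of 1 factor became 2 with no filter on low counts and with DESeq2 (Rax and Six6). Over all genes these settings called 365 of 22840 and 448 of 14521, against 280 of 14810 in the main fit. The factor count became 0 with a test against a 1.5-fold change (13 genes called) and at an adjusted p under 0.01 (81 genes). Leaving out 1 library gave 0 to 2 factors (133 to 301 genes). For the average over the stages, DESeq2 gave 2 factors and called 649 of 14521 genes, against 1 factor and 439 of 14810 genes in the main fit. Limma-voom, the 1.5-fold test and the stricter threshold gave 0 factors (366, 19 and 159 genes). Leaving out 1 library gave 0 to 1 (246 to 411 genes). For stage, the 1.5-fold test left 2 of 5 in heterozygous and 1 of 5 in homozygous libraries. Over all 14810 genes it called 963 and 936, against 5216 and 5238 in the main fit. The stricter threshold left 3 in homozygous libraries (3384 genes called). Leaving out 1 library gave 3 to 5 there (4060 to 5549 genes). With no filter on low counts the count in homozygous libraries was also 5 (5052 of 22840 genes called), with Six6 called in place of Otx2. The replicate block left 1 factor called at E9.5 (Rax, 0.77, adjusted p = 0.00926) and added Nkx2-1 with stage in homozygous libraries (0.69, adjusted p = 0.0221). Over all 14810 genes it called 248 and 5012 in these contrasts. Correlations of same-numbered libraries ran from -0.17 to 0.11, and from 0.03 to 0.11 between the genotypes of a stage. Differently numbered libraries were not set beside them, so whether the numbers pair libraries was not tested.

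Of 960 values of single factors under alternatives, 880 kept direction and call, 37 lost and 13 gained a call, and 30 changed sign. No value that changed sign was called over all 12 libraries or in the alternative that turned it. With total counts only they were Emx2 (0.10), Nkx2-1 (0.10) and Hesx1 (0.17) at E9.0 and Six6 (0.25) and Otx2 (0.033) with stage in heterozygous libraries. With no filter they were Six3 (-0.012) and Lhx2 (-0.0065) at E9.0, with the block Six3 (-0.004) and Hesx1 (0.0091) at E9.0, and with limma-voom Hesx1 (0.026) at E9.0 and Nkx2-1 (-0.054) with stage in heterozygous libraries. Leaving out 1 library moved the E9.0 values over 0 for Rax (-0.043 to 0.20), Six3 (-0.19 to 0.16), Six6 (-0.032 to 0.19), Lhx2 (-0.10 to 0.16), Nkx2-1 (-0.29 to 0.13), Pax6 (-0.010 to 0.13) and Hesx1 (-0.35 to 0.13), and the stage values in heterozygous libraries for Six6 (-0.20 to 0.0058) and Nkx2-1 (-0.20 to 0.35). Where an alternative changed a result the cause was not tested. Total counts moved the median of all genes by 0.19 at E9.0.

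Hesx1 had 27 to 127 counts and Nkx2-1 36 to 197 counts per library; how far depth limits their values was not tested.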
